A study of Mus musculus with 16 samples.

Results

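The genes described here encode proteins that cut, package and export RNA in the nucleus: SR proteins, hnRNPs, small nuclear ribonucleoprotein (snRNP) proteins, RNA helicases, nucleoporins and transport receptors. They were chosen by name, as every listed gene whose symbol begins with Srsf, Tra2, Hnrnp, Ptbp, U2af, Sf3a, Sf3b, Snrp, Snrnp, Prpf, Lsm and a digit, Luc7l, Rbm and a digit, Sfpq, Ddx, Dhx, Cpsf, Nup and a digit, Nxf, Xpo, Ipo, Kpna or Kpnb. This name rule was set with earlier results of these data known. The rule took 47 of the 1413 genes listed in either of the authors' deposited tables, 46 in the table for CD11c-low cells and 8 in that for CD11c-high cells, with 7 in both. The cells were mouse eosinophils, granulocytes of type 2 immunity, sorted out of duodenal lamina propria by their surface CD11c into a high and a low subset. Each subset was taken at ZT3 (AM) or ZT15 (PM), with 4 libraries of 1000 cells per subset and time. ZT, the zeitgeber time, counts hours from the onset of light. The labels give no strain, genotype or age, and leave unsaid whether a group's libraries are separate animals. Deposited errors therefore reflect variation among libraries that could be technical.

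A gene's first transcript holds introns that the spliceosome removes. U1 snRNP marks the start of an intron, U2AF and U2 snRNP mark its end and branch point, and the U4, U5 and U6 particles complete the cut. SR proteins mostly promote the use of nearby exons and hnRNPs often repress it, while RNA helicases remodel each step. Finished mRNA leaves through the nuclear pore bound to NXF1, and proteins with a leucine-rich export signal leave bound to XPO1 (exportin 1, also called CRM1).

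Values are those of the authors' own ZT15-against-ZT3 comparison, since the tables hold no value of any single library. Per gene they give a log2 fold change shrunken towards 0, its posterior standard deviation (written ±), the mean normalised count and an s-value. Some listed estimates are very large all the same, with extremes of -26.9 and 26.6 in CD11c-low and of -19.8 and 24.8 in CD11c-high cells. None of these extremes belongs to a gene chosen by the name rule. The s-value is the fraction of genes, down to this one in the ranking, whose direction is expected to be wrong. Only genes with s-values under 0.05 are listed. Nothing is known here of the others, which may have missed that threshold or not been tested. A mean normalised count is not divided by transcript length, so it is given as the depth behind a change and not to rank genes by level. With sorted bulk RNA, fewer cells of a kind and less RNA per cell cannot be told apart.

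In CD11c-low eosinophils most of the listed genes chosen by the name rule, called members here, were lower at ZT15. Other RNA processing genes, given further below, went both ways. Of 46 members, 32 fell and 14 rose in the authors' deposited table, which is 69.6% lower, against 47.8% lower (640 of 1340) over all genes listed there. Among members, all 3 transport receptor genes (Xpo, Ipo and Kpna) and both Nup genes fell, as did 5 of 6 SR protein genes. The Snrp, Snrnp, Prpf and Lsm genes were split 4 and 4. The members' median log2 fold change was -0.30 in the authors' deposited table, and over all listed genes it was 0.21. Among members that fell the median was -0.34, among those that rose it was 0.33, and the corresponding values over all listed genes were -0.39 and 0.36 in the authors' deposited table, so a typical member moved no further than a typical listed gene. An s-value under 0.01 was reached by 17 members, 12 lower and 5 higher (37.0%), against 38.7% of all listed genes. The deposited s-values put the expected number of wrong directions among these 46 at 2.40. All 46 are protein-coding genes in RefSeq, which holds 241 such genes with these name prefixes. The share listed was thus 19.1%, against 5.75% of all protein-coding genes. How many genes of either set were expressed or tested is not in the tables, so these shares are not compared further.

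**Figure D1:**
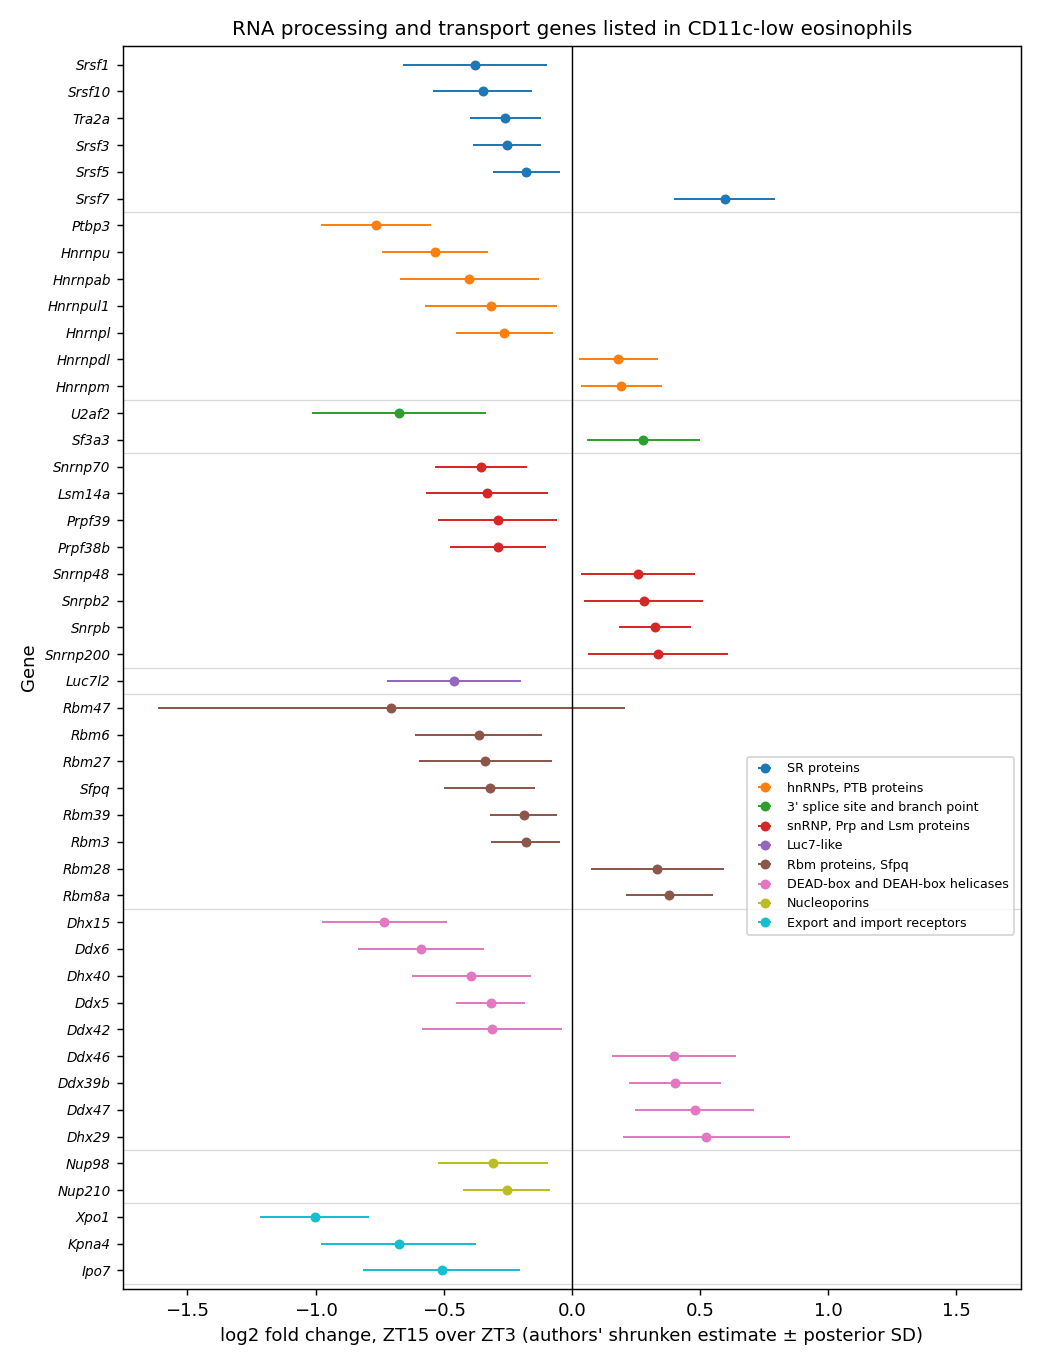
Log2 fold change at ZT15 over ZT3 (horizontal axis) for each of the 46 members listed in CD11c-low eosinophils, coloured by role. Points are the authors' shrunken estimates and bars their posterior standard deviations. Xpo1, which fell by 1.00, lies farthest to the left and Srsf7 farthest to the right at 0.60.

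The promoters of members that moved together were read for sequence motifs, because a shared motif is a feature the name rule did not use. RefSeq promoter sequences (build GRCm38.p6) were at hand for 39 of the 46 members of the CD11c-low table, 27 lower and 12 higher, and the 250 bases before each start were searched on both strands. The 3 members that fell and the 3 that rose with the smallest s-values and a single promoter entry are printed, 5′ to 3′ in the direction of the gene. Capitals mark CCAAT (the NF-Y box) or CCGGAAG (a core of ETS factor sites) on either strand. They are Xpo1 (chr11:23255791-23256040, plus strand), Dhx15 (chr5:52190547-52190796, minus strand) and Hnrnpu (chr1:178337816-178338065, minus strand), which fell, and Srsf7 (chr17:80207306-80207555, minus strand), Ddx39b (chr17:35241496-35241745, plus strand) and Ddx47 (chr6:135011362-135011611, plus strand), which rose.
Xpo1: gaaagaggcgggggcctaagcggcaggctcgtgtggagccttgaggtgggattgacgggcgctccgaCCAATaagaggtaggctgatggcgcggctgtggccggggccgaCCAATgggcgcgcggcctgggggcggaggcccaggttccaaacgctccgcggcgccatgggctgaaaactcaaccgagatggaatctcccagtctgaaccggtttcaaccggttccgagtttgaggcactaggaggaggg
Dhx15: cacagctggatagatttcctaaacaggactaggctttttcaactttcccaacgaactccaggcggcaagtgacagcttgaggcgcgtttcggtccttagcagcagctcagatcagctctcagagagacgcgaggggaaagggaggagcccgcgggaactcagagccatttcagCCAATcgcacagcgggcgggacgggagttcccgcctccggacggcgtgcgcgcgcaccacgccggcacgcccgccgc
Hnrnpu: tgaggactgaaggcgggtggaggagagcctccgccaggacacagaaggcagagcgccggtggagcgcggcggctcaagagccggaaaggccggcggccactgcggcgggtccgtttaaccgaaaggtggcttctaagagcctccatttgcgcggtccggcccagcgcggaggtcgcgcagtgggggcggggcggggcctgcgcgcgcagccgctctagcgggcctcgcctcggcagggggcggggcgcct
Srsf7: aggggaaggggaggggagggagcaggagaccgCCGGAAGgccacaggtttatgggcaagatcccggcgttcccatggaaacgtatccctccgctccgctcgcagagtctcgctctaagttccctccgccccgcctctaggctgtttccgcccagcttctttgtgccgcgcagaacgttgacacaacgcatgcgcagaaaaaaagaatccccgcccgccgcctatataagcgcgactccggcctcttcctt
Ddx39b: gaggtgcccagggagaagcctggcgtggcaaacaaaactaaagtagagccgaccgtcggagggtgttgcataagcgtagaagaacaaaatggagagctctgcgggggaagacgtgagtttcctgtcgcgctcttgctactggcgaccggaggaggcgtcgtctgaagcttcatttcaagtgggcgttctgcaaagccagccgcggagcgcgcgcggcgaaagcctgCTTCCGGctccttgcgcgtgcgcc
Ddx47: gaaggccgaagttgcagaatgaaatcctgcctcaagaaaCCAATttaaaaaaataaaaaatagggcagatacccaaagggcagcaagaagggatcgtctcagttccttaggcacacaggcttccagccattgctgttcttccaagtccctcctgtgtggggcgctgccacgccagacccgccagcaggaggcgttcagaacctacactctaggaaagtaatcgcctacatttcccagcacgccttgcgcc

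Xpo1 holds CCAAT at 183 and 140 bases before the start and Dhx15 at 77 bases, counted from the first base of each match. Srsf7 holds CCGGAAG at 218 bases and Ddx39b its reverse complement at 24 bases. Hnrnpu holds neither, and Ddx47, which rose, holds CCAAT at 211 bases. Over the members of the CD11c-low table, CCAAT was present in 17 of the 27 that fell (63.0%) and in 2 of the 12 that rose (16.7%). Over all listed genes with a promoter entry the same shares were 39.1% of 478 and 41.1% of 513, and over all protein-coding genes 39.5% of 17491. CCGGAAG showed the opposite order, in 2 of 27 members that fell (7.41%) and 5 of 12 that rose (41.7%), beside 18.8% and 17.7% of listed genes and 10.2% of all. The E-box CACGTG, the sequence that clock factors bind, was present in 5 of 27 members that fell (18.5%) and in none of the 12 that rose, beside 11.9% and 10.7% of listed genes and 7.61% of all. The 5 are Ddx5, Ddx42, Dhx40, Ipo7 and Prpf39. The cAMP response element TGACGTCA was found in the promoter of Tra2a alone among these 39, and the palindromic NRF1 motif in that of Snrnp70 alone, beside 2.20% and 1.21% of all protein-coding genes. These are matches of letters, with small numbers and no test, and genes with several promoter entries (5 of the 27 that fell and 0 of the 12 that rose) had more sequence in which to match.

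Transcript annotation (GENCODE M21, matched on gene identifier for all 46) also differed by direction. A transcript marked for nonsense-mediated decay, the route by which SR protein genes are known to limit their own mRNA through poison exons, was annotated for 19 of 32 members that fell (59.4%) and 4 of 14 that rose (28.6%). Among all listed protein-coding genes it was annotated for 32.3% of those that fell and 28.8% of those that rose, and among all protein-coding genes for 20.8%. Genes with more annotated transcripts have more chances of holding one, and the median number was 8.5 for members that fell, 6 for those that rose, 6 for listed genes and 3 for all protein-coding genes. Of the 6 SR protein genes, 5 have one, and Srsf10 has none. Retained-intron transcripts were annotated for 78.1% of members that fell and 92.9% of members that rose, beside 64.7% and 63.7% of listed genes. Members that fell had longer coding transcripts (median 2770 bases against 1787) of lower GC content (44.4% against 48.8%), and listed genes as a whole were ordered the same way (2306 against 1778 bases, 47.7% against 50.7%). The deposited values are per gene, so they hold no measure of which transcript of a gene changed.

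**Figure D2:**
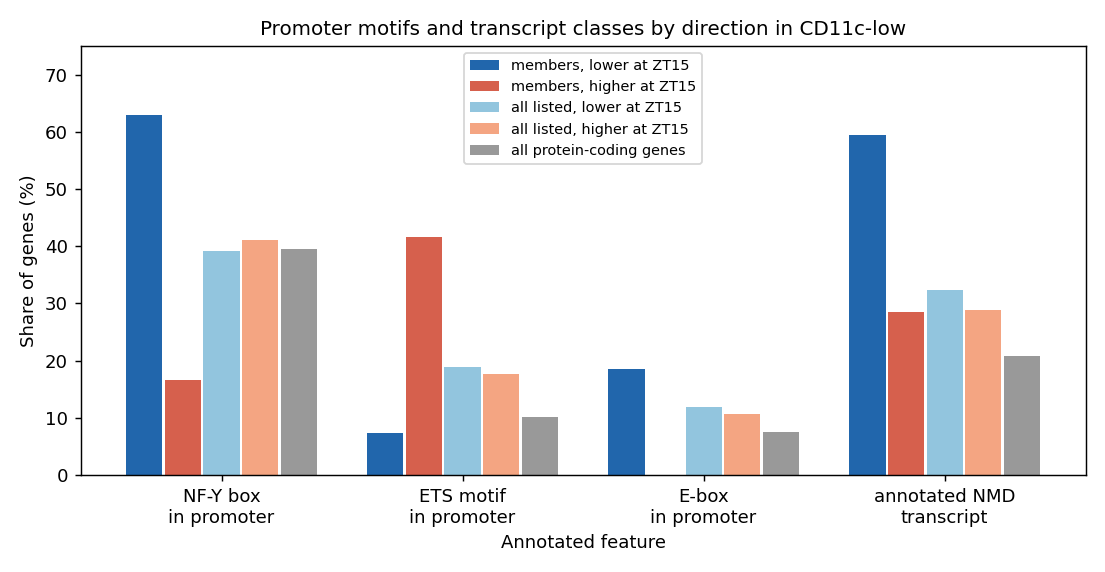
Share of genes (vertical axis, %) with an NF-Y box, ETS motif or E-box in the 250 bases before the start, or with an annotated nonsense-mediated decay (NMD) transcript. Bars stand for members and for all listed genes of the CD11c-low table by direction, and for all protein-coding genes. The NF-Y box is in 63.0% of members that fell and 16.7% of those that rose, while both bars for all listed genes lie near 40.

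Among members, nuclear transport receptors had the largest decrease. Xpo1 (ENSMUSG00000020290.15) fell by 1.00 ± 0.21 in the authors' deposited table (CD11c-low cells), to 0.499 of its ZT3 level, at a mean normalised count of 471. Its s-value of 1.24e-07 is the ninth smallest among the 640 genes that fell there. Kpna4 (ENSMUSG00000027782.11), which encodes an importin alpha that carries NF-kB subunits into the nucleus, fell by 0.68 ± 0.30 (s-value 0.00220, mean normalised count 241) in the authors' deposited table. Ipo7 (ENSMUSG00000066232.5), an importin of the beta family, fell by 0.51 ± 0.31 (s-value 0.0125, mean normalised count 113) in the authors' deposited table. The other 21 annotated Nxf, Xpo, Ipo and Kpn genes, such as Nxf1 and Kpnb1, are not listed in either table. At the pore itself, Nup98, a nucleoporin whose FG repeats form part of the permeability barrier, fell by 0.31 ± 0.21 and the membrane-anchored Nup210 by 0.25 ± 0.17 in the authors' deposited table, both with s-values above 0.02 (0.0261 and 0.0228). These 2 are the listed ones of 21 annotated Nup genes. Pore proteins without that prefix went the other way in the authors' deposited table. Tpr rose by 0.30 ± 0.18 (s-value 0.0129) and Rae1 by 0.25 ± 0.22 (s-value 0.0484), while the importin Tnpo3 fell (-0.30 ± 0.25).

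SR proteins moved down with 1 exception. Srsf7 (ENSMUSG00000024097.12), whose protein also hands mRNA to the export receptor NXF1, rose by 0.60 ± 0.20 (1.51-fold, s-value 0.000194, mean normalised count 997) in the authors' deposited table (CD11c-low cells), the largest increase of any member. Srsf3 (ENSMUSG00000071172.14), a small SR protein that can also act in export, fell by 0.25 ± 0.13 (s-value 0.00865, mean normalised count 2441) in the authors' deposited table. Srsf10, which can act as a splicing repressor, fell by 0.35 ± 0.19 and Tra2a, which binds purine-rich exonic enhancers, by 0.26 ± 0.14 in the authors' deposited table, with s-values of 0.00981 and 0.00872. Srsf1, the founding member of the family, fell by 0.38 ± 0.28 and Srsf5 by 0.18 ± 0.13 in the authors' deposited table, with weaker support (s-values 0.0295 and 0.0335). Listed were 6 of 13 annotated genes (46.2%), and Srsf2, Srsf4, Srsf9, Srsf11, Srsf12 and Tra2b are in neither table.

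Among hnRNPs and their relatives, 5 fell and 2 rose. Ptbp3 (ENSMUSG00000028382.16), a polypyrimidine tract binding protein prominent in blood cells, fell by 0.76 ± 0.21 to 0.589 of its ZT3 level (s-value 1.84e-05, mean normalised count 762) in the authors' deposited table, the second smallest s-value of any member. Hnrnpu (ENSMUSG00000039630.11), a scaffold protein of nuclear chromatin and RNA, fell by 0.53 ± 0.21 (s-value 0.000838, mean normalised count 1555) in the authors' deposited table. Smaller or less certain decreases were those of Hnrnpab (-0.40 ± 0.27), Hnrnpul1 (-0.32 ± 0.26) and Hnrnpl (-0.26 ± 0.19), which binds CA repeats, with s-values from 0.0210 to 0.0408 in the authors' deposited table. Hnrnpm, which binds GU-rich RNA, rose by 0.19 ± 0.16 and Hnrnpdl by 0.18 ± 0.15 in the authors' deposited table, with s-values of 0.0436 and 0.0466 that lie just inside the threshold. Ptbp1, Ptbp2, Hnrnpa1, Hnrnpa2b1, Hnrnpc and Hnrnpk are among the family members in neither table.

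Recognition of the intron's end was represented by U2af2 and Sf3a3, which went opposite ways. U2af2, the subunit of U2AF that binds the polypyrimidine tract, fell by 0.67 ± 0.34 (s-value 0.00485, mean normalised count 104) in the authors' deposited table. Sf3a3, a subunit of the U2 snRNP complex SF3A, rose by 0.28 ± 0.22 (s-value 0.0380) in the authors' deposited table. Of the 12 annotated U2af, Sf3a and Sf3b genes the other 10 are not listed.

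The Snrp, Snrnp, Prpf and Lsm genes rose in 4 cases and fell in 4, the latter including Lsm14a, which is no snRNP protein. Snrpb (ENSMUSG00000027404.17), a core Sm protein shared by most spliceosomal snRNPs, rose by 0.32 ± 0.14 (s-value 0.00245, mean normalised count 1448) in the authors' deposited table. Snrnp200, the helicase that unwinds U4 from U6, rose by 0.33 ± 0.27, Snrpb2 of U2 snRNP by 0.28 ± 0.23 and Snrnp48 of the minor spliceosome by 0.26 ± 0.22 in the authors' deposited table, with s-values from 0.0402 to 0.0472. On the other side, Snrnp70, the U1 protein that SR proteins contact, fell by 0.36 ± 0.18 (s-value 0.00620) and Luc7l2, also associated with U1 and the choice of the 5′ splice site, by 0.46 ± 0.26 (s-value 0.0103) in the authors' deposited table. Prpf39, another U1-linked protein, fell by 0.29 ± 0.23 and Prpf38b by 0.29 ± 0.19 in the authors' deposited table. Lsm14a, which acts in cytoplasmic P-bodies and in no Lsm ring, fell by 0.33 ± 0.24 in the authors' deposited table.

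Helicases were split, with 5 lower and 4 higher, and for 8 of these 9 the gene's own chance of a wrong direction, recovered from successive s-values, was under 0.05, against 52.7% of all listed genes. Dhx15 (ENSMUSG00000029169.12), which takes the spliceosome apart after the cut, fell by 0.73 ± 0.24 to 0.602 of its ZT3 level (s-value 0.000204, mean normalised count 396) in the authors' deposited table. Ddx6, a P-body helicase of mRNA repression and decapping, fell by 0.59 ± 0.25 (s-value 0.00142, mean normalised count 1292) in the authors' deposited table. Ddx5 (ENSMUSG00000020719.15), the helicase p68 of splicing and transcription, fell by 0.32 ± 0.14 (s-value 0.00211) in the authors' deposited table at a mean normalised count of 11929, the deepest measurement of any member. The authors' deposited table also holds decreases of Dhx40 (-0.39 ± 0.23) and Ddx42, an SF3B-associated helicase (-0.31 ± 0.27), Ddx42 with an s-value of 0.0479 at the edge of the list. The increases were those of Ddx39b (0.40 ± 0.18, s-value 0.00262), the UAP56 helicase that loads the export complex TREX onto mRNA, and Ddx46 (0.40 ± 0.24), which acts when U2 snRNP joins the branch point, in the authors' deposited table. Ddx47, a nucleolar helicase of ribosomal RNA processing, rose by 0.48 ± 0.23 (s-value 0.00436) and Dhx29, a helicase of translation initiation, by 0.52 ± 0.33 (s-value 0.0145) in the authors' deposited table. Of the 4 helicases that rose, these last 2 work outside splicing.

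Genes of Rbm proteins and Sfpq fell in 6 of 8 cases, and 0 of these 6 had an s-value under 0.01. Only for Sfpq among the 6 was the gene's own chance of a wrong direction under 0.05. Sfpq (ENSMUSG00000028820.15), a paraspeckle protein, fell by 0.32 ± 0.18 (s-value 0.0106, mean normalised count 770) in the authors' deposited table. Rbm39, an SR-like splicing factor measured at a mean normalised count of 4131, fell by 0.19 ± 0.13 (s-value 0.0280), and Rbm6 and Rbm27 fell by 0.36 ± 0.25 and 0.34 ± 0.26 in the authors' deposited table. Rbm3 is the cold-inducible RNA-binding protein known for daily rhythms linked to body temperature. It fell by 0.18 ± 0.13 (s-value 0.0352, mean normalised count 1356) in the authors' deposited table. Rbm47 was the member with the fewest counts (mean normalised count 13.2), and its change of -0.70 ± 0.91 in the authors' deposited table has an error larger than itself, so no size is read from it. Rbm8a, the exon junction complex protein Y14, rose by 0.38 ± 0.17 (s-value 0.00276) and Rbm28, a nucleolar protein, by 0.33 ± 0.26 (s-value 0.0346) in the authors' deposited table. None of the 7 annotated Cpsf genes, which encode the 3′ end cleavage factor, is listed in either table.

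**Figure D3:**
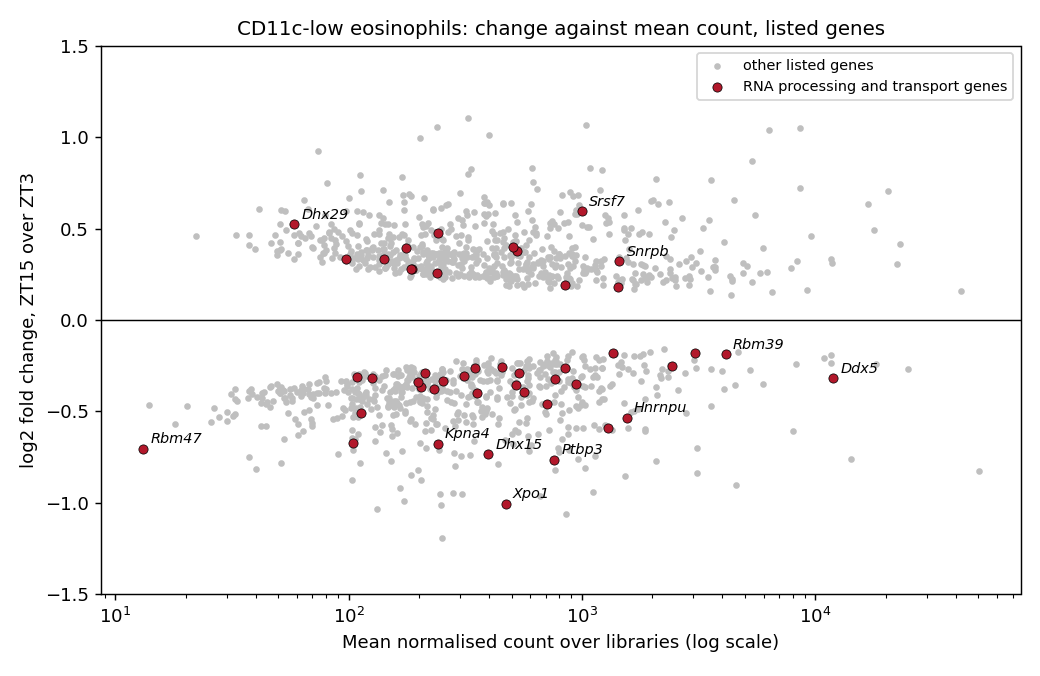
Log2 fold change at ZT15 over ZT3 against the mean normalised count (log axis) in the authors' deposited table (CD11c-low cells). Members, labelled RNA processing and transport genes, are in red and other listed genes in grey. The axis holds 1321 of 1340 genes, the other 19 lying beyond 1.5 in size, and the empty band around 0 is where genes were not listed. Members span the range of counts, from Rbm47 at 13.2 to Ddx5 at 11929, and more lie below the band than above it.

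Decreases were not limited to shallow measurements. Of the 23 members with a mean normalised count above the members' median, 17 fell and 6 rose (73.9% lower), against 43.8% lower among the 566 listed genes above that count. Below the median 15 fell and 8 rose (65.2% lower), against 50.6% of 774 listed genes. Of the 11 members that changed by 0.5 or more in log2 size in the authors' deposited table, 9 fell, counting Rbm47 with its large error, and the 2 that rose were Srsf7 and Dhx29, while 53.7% of the 313 listed genes of that size fell.

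Other genes of the same pathways, from lists not built on the name rule, went both ways, with some lists mostly higher and others mostly lower. SR-related proteins and SR kinases had 4 listed genes of 18, and all 4 rose in CD11c-low cells. Of these, the authors' deposited table gave Srrm1, a splicing coactivator, 0.46 ± 0.17, Acin1 0.48 ± 0.21, the speckle protein Son 0.30 ± 0.15 and Srrm2, a scaffold of nuclear speckles, 0.17 ± 0.13. Further spliceosome proteins had 10 listed genes of 47, 8 higher and 2 lower, such as Slu7 (0.49 ± 0.21), a second-step factor, Smu1 (0.47 ± 0.23), Pqbp1 (0.45 ± 0.26) and Wbp11 (-0.62 ± 0.26) in the authors' deposited table. The list of further nuclear RNA-binding proteins went the way of the members, with 10 lower and 4 higher of 55. Of its muscleblind splicing regulators, Mbnl1 fell by 0.61 ± 0.19 and Mbnl3 rose by 0.40 ± 0.18 in the authors' deposited table. Exon junction, export adaptor and decay genes had 2 higher and 4 lower of 34, among them Eif4a3 (0.28 ± 0.17), the core helicase of that junction, Upf3b (0.40 ± 0.26), Smg1 (-0.34 ± 0.24) and Poldip3 (-0.24 ± 0.17) in the authors' deposited table. From the Ran cycle and the remaining pore proteins, Tpr (0.30 ± 0.18) and Rae1 (0.25 ± 0.22) rose and Tnpo3, the importin of SR proteins, fell (-0.30 ± 0.25) in the authors' deposited table, 3 of 19. The 3′ end partners Pcf11 (-0.30 ± 0.26) and Cstf2t (-0.28 ± 0.24) fell, 2 of 16, and of the N6-methyladenosine machinery Zc3h13 (0.55 ± 0.21) and Fto (0.33 ± 0.29) rose, 2 of 13, in the authors' deposited table. Support was weak for Srrm2, Tnpo3, Cstf2t, Fto, Rae1 and Pcf11, with s-values from 0.0384 to 0.0491 near the threshold. For Eif4a3, Upf3b, Smg1 and Poldip3 the s-values ran from 0.0182 to 0.0276. Each of these had its own chance of a wrong direction above 0.05.

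In CD11c-high eosinophils 8 members were listed, 7 lower and 1 higher in the authors' deposited table, against 45.9% lower among all 172 genes listed there. Their changes were small, from -0.26 to 0.22. Ddx5 was the member with the smallest s-value and fell by 0.23 ± 0.12 (s-value 0.00599, mean normalised count 8696) in the authors' deposited table (CD11c-high cells). Srsf5 fell by 0.22 ± 0.14 (s-value 0.0199), Dhx15 by 0.26 ± 0.19 (s-value 0.0259), Tra2a by 0.20 ± 0.14 (s-value 0.0302), Rbm3 by 0.22 ± 0.16 (s-value 0.0343) and Sfpq by 0.21 ± 0.17 (s-value 0.0426) in the authors' deposited table for these cells. Srsf6, the remaining SR protein gene and the one member listed only for CD11c-high cells, fell by 0.19 ± 0.16 (s-value 0.0480) in the authors' deposited table. Snrnp48 was the single member that rose (0.22 ± 0.18, s-value 0.0414) in the authors' deposited table. The s-value of 1 of these 8 lay under 0.01 (12.5%), against 22.1% of all genes listed there. No transport receptor, nucleoporin or hnRNP was listed, which does not show that these genes held steady. Matr3 (-0.21 ± 0.16, s-value 0.0404) and Fmr1 (-0.38 ± 0.33, s-value 0.0292) were the 2 listed genes of the further RNA-binding list, and both fell in the authors' deposited table (CD11c-high cells).

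Of the 8 members listed for CD11c-high cells, 7 (87.5%) were listed for CD11c-low cells too, which is 15.2% of the 46 there. Over all genes, 57.6% of the CD11c-high table and 7.39% of the CD11c-low table were in both. All 7 had the same direction in each subset, as did 97 of 99 shared genes (98.0%). The subsets come from different libraries, and the labels do not say whether the cells came from the same mice. Dhx15 had the widest gap, at -0.73 ± 0.24 in CD11c-low and -0.26 ± 0.19 in CD11c-high cells in the authors' deposited tables. The difference of -0.47 has a 95% interval from -1.08 to 0.13. Taken as a two-sided normal deviate over the deposited errors and adjusted by Benjamini-Hochberg across the 99 shared genes, its p was 0.630. For the other 6 the difference was between -0.11 and 0.04, and each adjusted p was 0.970. The interval for Ddx5, the narrowest of the 7, ran from -0.44 to 0.26. No member's difference passed, and none had an unadjusted p under 0.05, while 3 of the 99 shared genes passed after adjustment (10 if a correlation of 0.5 between the 2 estimates is assumed). The intervals are wide enough to hold differences as large as most of the changes themselves, and both estimates are shrunken, so equal change is not shown.

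**Figure D4:**
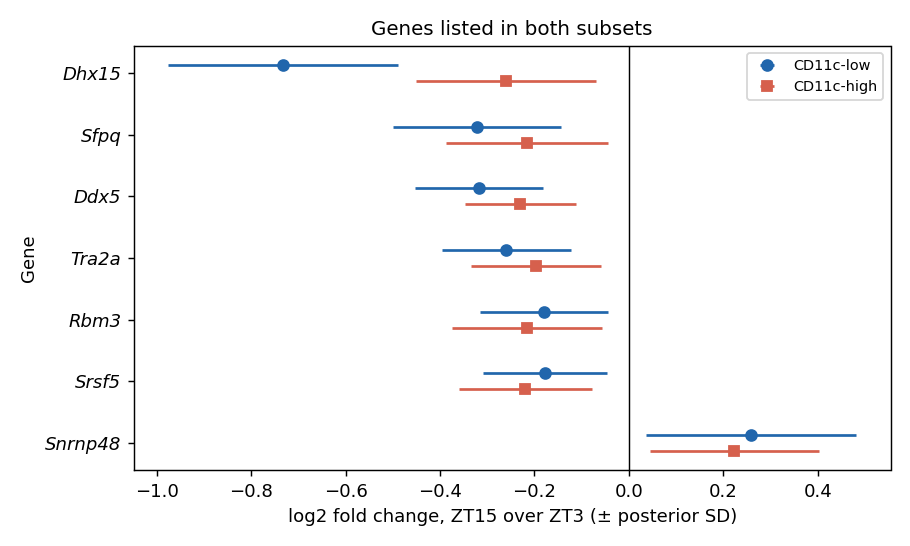
Log2 fold change at ZT15 over ZT3 (horizontal axis) of the 7 members listed in both subsets. Circles are CD11c-low and squares CD11c-high cells, with posterior standard deviations as bars. Each pair lies on the same side of 0, and the bars overlap for every gene but Dhx15, where they end close to each other.

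Several facts of the tables bear on these values. Mean normalised counts of members ran from 13.2 to 11929 in CD11c-low cells, and the depth of single libraries is unknown. Of the eosinophil markers, 5 of 16 were listed for CD11c-low cells, 4 higher, such as Itgam (0.57 ± 0.17), and 1 lower, Adgre1 (-0.29 ± 0.14), in the authors' deposited table, and 0 of 16 for CD11c-high cells; levels of the others were not analysed here. Markers of B and plasma cells (2 of 13, both higher), T and NK cells (1 of 13, higher), other myeloid and mast cells (2 of 22, 1 higher) and epithelium and stroma (1 of 17, lower) were listed for CD11c-low cells and none for CD11c-high cells, beside 14 and 9 immunoglobulin segments. The listed T and NK cell marker was Gzma, at 20.99 ± 3.33 (s-value 3.83e-07, mean normalised count 30.4) in the authors' deposited table (CD11c-low cells). The nuclear RNA Malat1 rose by 0.63 ± 0.15 in the authors' deposited table (CD11c-low cells), in the same libraries in which most members fell. The part of these in the members' changes was not tested. In GENCODE M21, exons of 15 of the 47 members overlap those of another gene, 10 of them on the opposite strand, and the sources used here do not give the strand setting of the counting. The longest such overlaps with protein-coding genes are those of Hnrnpm with March2 (1169 bases, same strand), Hnrnpab with Phykpl (809 bases), Hnrnpu with Cox20 (804 bases) and Prpf39 with Fkbp3 (599 bases). None of those 4 partners is listed, and reads from the 2 genes of a pair cannot be told apart in the deposited values.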

How the data were processed

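Polyadenylated RNA of 16 libraries, each of 1000 sorted eosinophils, was amplified and sequenced after a Nextera XT preparation, per the labels' protocols. The submitters' processing notes name STAR 2.7.10b, DESeq2 1.38.3 and the build GRCm39 but assign no roles. How reads were counted, the annotation and the shrinkage method were not given in the sources used here. The authors deposited mean normalised counts, a signal averaged over libraries after division by size factors, per the file headers. Also deposited were log2 fold changes, taken as shrunken because they come with s-values, and a spread score per gene, read as the posterior standard deviation. Deposited s-values lie on the scale of p-values but are not p-values.

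The tables' names (PM vs AM) gave the direction, which no listed clock gene of known phase could check (of 22 core clock genes, Csnk1e is listed for CD11c-low cells and 0 for CD11c-high cells). From the files, Python 3.11.15 (pandas 2.3.3; NumPy 2.4.6; SciPy 1.17.1) computed counts and medians by role, each gene's own false sign rate, motif and transcript annotation counts, and differences between subsets as normal deviates adjusted by Benjamini-Hochberg over 99 genes. The functions were tested on simulated data. Members, lists and tests were chosen with earlier results of these data known. Every member could be named, and up to 4 genes of each other list, those with the smallest s-values, of which some are not reported here. Alternatives were 2 stricter calls, mean normalised counts of at least 50 or 200, another reading of the name rule, and leaving out helicases or transport genes. Protein sequences were not used here, so the planned protein features were left out. RefSeq promoter coordinates are of GRCm38.p6, not the build of the notes.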

Additional observations from a re-analysis of the deposited data

How the results depend on the processing

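More members fell than rose in CD11c-low cells under all 7 alternatives. The median log2 fold change ran from -0.35 to -0.29, which restates that majority, since no listed value lies near 0. At an s-value under 0.01 the members of the CD11c-low table numbered 12 lower and 5 higher (245 and 273 over all listed genes), those for CD11c-high cells 1 lower and 0 higher, and 1 member (Ddx5) was in both. With a false sign rate of its own under 0.05 required of each gene, the counts were 16 lower and 7 higher (335 and 371 over all listed genes), 2 lower and 0 higher, and 1 in both. Requiring a mean normalised count of at least 200 left 8 higher and 26 lower in CD11c-low cells. Fewer genes are counted under each of these by construction. With a correlation of 0.5 assumed between the 2 estimates of a gene, 0 of 7 members differed between subsets after adjustment. Taken as a two-sided normal deviate over the deposited errors, only Dhx15 among these members had an unadjusted p under 0.05, at 0.0331. Adjusted by Benjamini-Hochberg across the 99 shared genes, this normal-deviate p of Dhx15 was 0.178. No paired analysis was possible because the tables hold no value of a single library, so neither leaving out a replicate nor a replicate block was run. Depth limits the small counts most, above all Rbm47.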
